A study of Mus musculus with 6 samples.

Results

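Excitation-contraction coupling and calcium handling were examined in cultured satellite cells (SCs) through 10 genes. The genes were *Cacna1s*, *Cacng1*, *Ryr1*, *Ryr3*, *Jsrp1*, *Casq1*, *Casq2*, *Atp2a1*, *Atp2a2* and *Jph1*, taken by name from a table of 55416 genes, in which each of the 10 names had 1 row. SCs are the stem cells of skeletal muscle. The study asked how the loss of *Ltf*, the gene of the secreted glycoprotein lactoferrin, affects them, and RNA sequencing covered 6 libraries, of which 3 were WT and 3 *Ltf*-KO. By the study's methods, the knockout was systemic and was made by CRISPR-Cas9 deletion of several exons in C57/BL6N zygotes, the muscle came from the hind legs, and mice were 8 to 10 weeks old unless stated otherwise. The strain of the WT mice is not given in the sources used here. By the same methods, cells of both genotypes were flow sorted as negative for Sca1 and CD11b and positive for CD34 and α7-integrin. The stains listed there were for CD31, CD45, Sca1 and α7-integrin, with none for CD11b or CD34. Sorted cells were collected in medium with fetal bovine serum, chick embryo extract, basic fibroblast growth factor, penicillin and streptomycin. The cells were then grown on Matrigel for 4 days and received no other treatment. Nothing in the labels says whether libraries of a genotype came from separate animals, so that the p-values measure the spread between these libraries, which may be technical.

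In a muscle fibre an action potential runs along the sarcolemma into the transverse tubules, where the voltage-gated calcium channel CaV1.1 acts as the voltage sensor. In skeletal muscle the sensor is coupled mechanically to the ryanodine receptor in the facing membrane of the sarcoplasmic reticulum, which opens and lets stored calcium into the cytoplasm. Calsequestrin binds calcium inside the store, SERCA pumps return it there, and junctophilins hold the membranes of the junction together. The machinery is built as myoblasts leave the cell cycle, differentiate and fuse, so that in SC cultures its transcripts are known as part of the differentiation programme.

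Expression was given as TPM, reads corrected for gene length on a total common to the libraries. Levels can therefore be compared between genes, but the depth behind them is unknown. A level of 1 TPM was reached by 12828 to 12922 genes per WT library and by 12887 to 12951 genes per *Ltf*-KO library. *Ltf* itself (ENSMUSG00000032496) was listed at 0.12, 0.02 and 0.02 TPM in WT and at 0.02, 0.03 and 0 TPM in *Ltf*-KO, near the floor in both genotypes, so that its level does not check the labels. Of the 8 SC and myoblast markers, 7 had a mean of at least 1 TPM. *Myod1*, a myogenic transcription factor, was the most abundant with a mean of 779 TPM, *Pax7* had a mean of 40.3 TPM and *Chodl* a mean of 0.282 TPM. In the deposited annotation, 6 of the 10 genes carried the term sarcoplasmic reticulum (*Ryr1*, *Atp2a1*, *Atp2a2*, *Casq1*, *Casq2* and *Jph1*), and 4 carried T-tubule (*Ryr1*, *Cacna1s*, *Cacng1* and *Casq1*).

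Promoter sequences are shown as a description of the genes, and a link to their levels in the libraries was not tested. RefSeq promoter windows on GRCm38.p6, each from 250 bases before to 50 bases after the start of a gene, were matched by symbol for 5 of the 10 genes. They were searched for the E-box CANNTG, the general motif of myogenic bHLH factors, for its form CAGCTG, and for the consensus of MEF2, a partner of those factors. All 3 motifs read the same on both strands, and CAGCTG is a special case of the general form. The general form was present in 4 of the 5 windows and in 72.3% of all 32851 windows. CAGCTG was present in 3 of the 5 and in 16.3% of all windows, and the MEF2 consensus in 1 of the 5 and in 3.19% of all windows. CAGCTG began 123 bases before the start in *Cacna1s*, 195 bases before it in *Casq1* and 55 bases before it in *Atp2a1*. In *Casq2* the MEF2 consensus began 69 bases before the start and an E-box CAACTG 52 bases before it. The window of *Ryr1* held none of the 3 motifs. These matches describe the letters only. The 200 bases before each start are given with E-boxes and the MEF2 consensus in capitals.
*Cacna1s*, chr1:136052611-136052810, plus strand: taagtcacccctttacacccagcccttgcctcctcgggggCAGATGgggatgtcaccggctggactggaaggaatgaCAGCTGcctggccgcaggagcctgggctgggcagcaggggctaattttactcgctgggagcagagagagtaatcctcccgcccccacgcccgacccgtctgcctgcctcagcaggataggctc
*Ryr1*, chr7:29125152-29125351, minus strand: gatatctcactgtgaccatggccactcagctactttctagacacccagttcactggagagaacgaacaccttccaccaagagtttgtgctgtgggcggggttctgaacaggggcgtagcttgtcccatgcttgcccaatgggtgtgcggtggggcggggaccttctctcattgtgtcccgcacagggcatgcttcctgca
*Casq1*, chr1:172219896-172220095, minus strand: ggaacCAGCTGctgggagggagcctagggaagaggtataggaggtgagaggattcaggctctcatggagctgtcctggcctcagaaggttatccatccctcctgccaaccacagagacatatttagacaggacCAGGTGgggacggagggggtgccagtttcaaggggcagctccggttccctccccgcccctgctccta
*Casq2*, chr3:102086215-102086414, plus strand: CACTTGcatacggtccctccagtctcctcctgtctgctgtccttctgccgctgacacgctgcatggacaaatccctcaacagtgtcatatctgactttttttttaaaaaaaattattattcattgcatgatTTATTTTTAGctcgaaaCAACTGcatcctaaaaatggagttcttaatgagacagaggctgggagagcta
*Atp2a1*, chr7:126463074-126463273, minus strand: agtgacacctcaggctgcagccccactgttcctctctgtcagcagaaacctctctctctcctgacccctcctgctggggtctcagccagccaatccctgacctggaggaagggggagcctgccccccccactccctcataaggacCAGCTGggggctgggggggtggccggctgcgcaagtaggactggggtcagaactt

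The 10 genes spanned a wide range of levels. The mean over the 6 libraries was 176 TPM for *Atp2a2*, 107 TPM for *Jsrp1*, 60.4 TPM for *Cacng1*, 40.5 TPM for *Casq2*, 29.8 TPM for *Atp2a1* and 17.0 TPM for *Ryr1*. It was 6.92 TPM for *Jph1*, 5.54 TPM for *Cacna1s*, 3.16 TPM for *Casq1* and 0.187 TPM for *Ryr3*. The ranges over libraries of *Atp2a2*, *Jsrp1* and *Cacng1* did not overlap with each other, while those of *Cacng1* and *Casq2*, *Casq2* and *Atp2a1*, and *Atp2a1* and *Ryr1* did. *Jph1* overlapped with *Cacna1s* and *Cacna1s* with *Casq1*, and *Ryr3* lay below all others in every library. With a minimum mean of 1 TPM, 9 of the 10 genes entered the comparison of the genotypes and *Ryr3* did not.

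**Figure D1:**
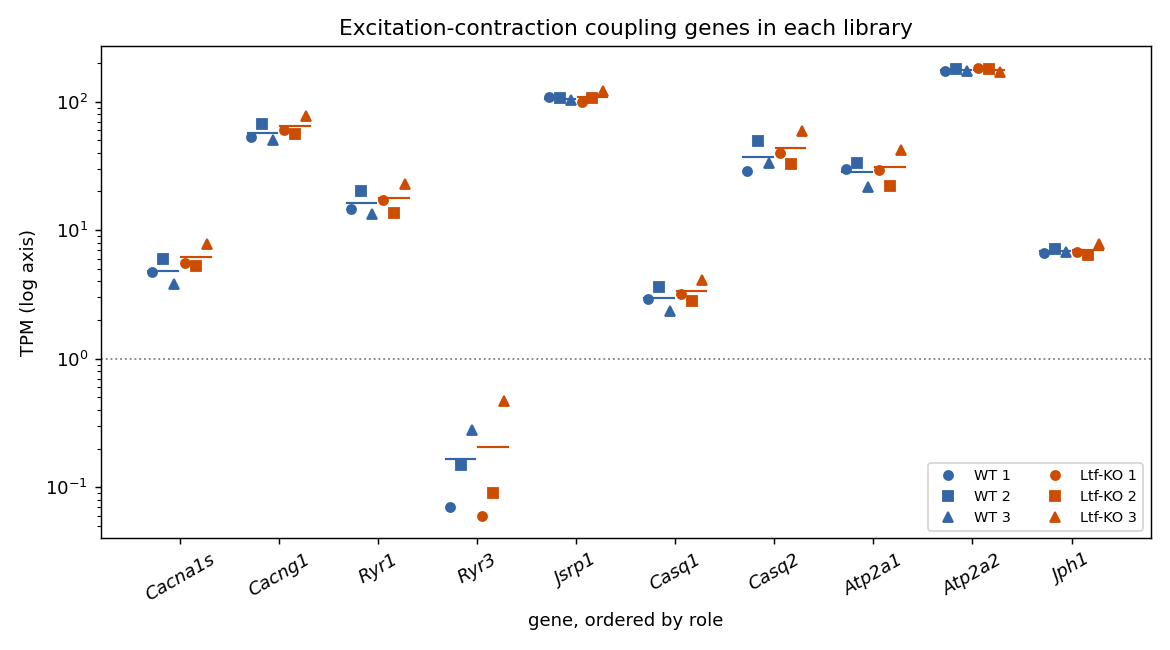
TPM of the 10 genes (log axis) in each of the 3 WT and 3 *Ltf*-KO libraries, with 1 point per library, short lines at the mean of a genotype and a dotted line at 1 TPM. *Atp2a2* lies between 171 and 182 TPM in all 6 libraries, *Casq2* spreads from 29.0 to 58.9 TPM, and *Ryr3* stays under 1 TPM.

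The voltage sensor was represented by *Cacna1s* and *Cacng1*. *Cacna1s* (ENSMUSG00000026407, chromosome 1), which encodes the pore-forming and voltage-sensing subunit of CaV1.1, was at 4.74, 5.99 and 3.84 TPM in WT replicates 1 to 3 and at 5.56, 5.31 and 7.79 TPM in *Ltf*-KO replicates 1 to 3. The genotypes overlapped, with *Ltf*-KO replicate 3 the highest and WT replicate 3 the lowest library. Means were 4.86 ± 1.08 TPM (SD, n = 3) for WT and 6.22 ± 1.37 TPM (SD, n = 3) for *Ltf*-KO. The difference on the log2(TPM + 1) scale, 0.30 with a 95% confidence interval from -0.14 to 0.74, was the largest of the 9 tested genes (limma, unadjusted p = 0.144, adjusted p = 0.999). *Cacng1* (ENSMUSG00000020722, chromosome 11), the gamma subunit of the same channel, stood at 52.8, 66.7 and 50.1 TPM in WT and at 60.4, 55.7 and 76.9 TPM in *Ltf*-KO. It followed the same order at its ends, with *Ltf*-KO replicate 3 highest and WT replicate 3 lowest. Means were 56.5 ± 8.89 TPM (SD, n = 3) for WT and 64.4 ± 11.1 TPM (SD, n = 3) for *Ltf*-KO, and the log2 difference was 0.18 (95% confidence interval -0.18 to 0.54, limma, unadjusted p = 0.265). In a list of 6 voltage sensor genes the most abundant was *Stac3*, an adaptor that CaV1.1 needs to reach the junction and to couple, with a mean of 92.2 TPM, followed by *Cacng1* and by *Cacnb1*, the beta subunit, with a mean of 27.1 TPM. All 6 passed the filter and 0 were at an unadjusted p under 0.05 by limma, beside 3.78% of all 12956 tested genes. Their median log2 difference was 0.18 beside 0.011 over all tested genes.

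The release channel was represented by *Ryr1* and *Ryr3*. *Ryr1* (ENSMUSG00000030592, chromosome 7), the ryanodine receptor of skeletal muscle, was at 14.7, 20.2 and 13.5 TPM in WT and at 17.1, 13.5 and 23.0 TPM in *Ltf*-KO. WT replicate 2 and *Ltf*-KO replicate 3 were the highest libraries, each above both others of its genotype. The means of 16.1 ± 3.57 TPM (SD, n = 3) for WT and 17.9 ± 4.79 TPM (SD, n = 3) for *Ltf*-KO differed by less than that spread, with a log2 difference of 0.13 (95% confidence interval -0.39 to 0.65, limma, unadjusted p = 0.567). *Ryr3* (ENSMUSG00000057378, chromosome 2), the isoform known from developing muscle, was at 0.07, 0.15 and 0.28 TPM in WT and at 0.06, 0.09 and 0.47 TPM in *Ltf*-KO. Its genotypes overlapped, and at such a level, with the depth unknown, no difference was detectable. *Ryr2*, the cardiac isoform, was between 0 and 0.04 TPM. *Jsrp1* (ENSMUSG00000020216, chromosome 10), a junctional protein of the sarcoplasmic reticulum that binds CaV1.1 and calsequestrin, was at 108, 106 and 103 TPM in WT and at 99.2, 107 and 120 TPM in *Ltf*-KO. It varied less than *Ryr1*, by 1.21-fold between its highest and its lowest library against 1.71-fold, and its log2 difference was 0.037 (95% confidence interval -0.14 to 0.21, limma, unadjusted p = 0.624). In the list of the release channel and its partners, 12 of 14 genes passed the filter. *Fkbp1a*, which binds and stabilises ryanodine receptors, was the most abundant with a mean of 362 TPM, followed by *Jsrp1* and by *Asph*, whose locus also encodes junctin, with a mean of 43.0 TPM. The list held 1 gene at an unadjusted p under 0.05 with a higher value in *Ltf*-KO and 0 with a lower value, and its median log2 difference was 0.071.

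That gene was *Fkbp1b*, a second FK506-binding protein of ryanodine receptors, which was at 2.26, 2.18 and 3.95 TPM in WT and at 6.65, 12.4 and 3.80 TPM in *Ltf*-KO. *Ltf*-KO replicates 1 and 2 stood above all WT libraries, while *Ltf*-KO replicate 3 lay below WT replicate 3, so that the genotypes overlapped. The log2 difference was 1.09 (95% confidence interval 0.17 to 2.0, limma, unadjusted p = 0.0264, adjusted p = 0.999). It did not pass the adjusted threshold. With a library left out it ranged from 0.71 without *Ltf*-KO replicate 2 to 1.45 without *Ltf*-KO replicate 3. In 4 of the 6 such fits the unadjusted limma p was above 0.05, at 0.0841 without WT replicate 1, 0.0835 without WT replicate 2, 0.0673 without *Ltf*-KO replicate 1 and 0.0592 without *Ltf*-KO replicate 2.

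The calcium buffers of the store were *Casq1* and *Casq2*, the calsequestrins of fast fibres and of slow and cardiac muscle. *Casq1* (ENSMUSG00000007122, chromosome 1) was at 2.90, 3.64 and 2.36 TPM in WT and at 3.17, 2.79 and 4.12 TPM in *Ltf*-KO. *Casq2* (ENSMUSG00000027861, chromosome 3) was at 29.0, 49.5 and 33.3 TPM in WT and at 40.0, 32.6 and 58.9 TPM in *Ltf*-KO. In both genes WT replicate 2 and *Ltf*-KO replicate 3 were the 2 highest libraries, and the genotypes overlapped. The lowest library was WT replicate 3 for *Casq1* and WT replicate 1 for *Casq2*, whose highest library was 2.03-fold above its lowest. The log2 difference was 0.14 for *Casq1* (95% confidence interval -0.27 to 0.55, limma, unadjusted p = 0.449) and 0.22 for *Casq2* (95% confidence interval -0.41 to 0.85, limma, unadjusted p = 0.428). The spread of *Casq2* within genotypes, an SD of 0.41 on the log2 scale, was larger than that of 97.9% of the 6681 tested genes with a mean from 10 to 100 TPM.

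The pumps that refill the store were *Atp2a1*, which encodes SERCA1 of fast fibres, and *Atp2a2*, which encodes SERCA2 of slow and cardiac muscle and of most other cells. *Atp2a1* (ENSMUSG00000030730, chromosome 7) was at 30.1, 33.6 and 21.8 TPM in WT and at 29.1, 22.3 and 42.2 TPM in *Ltf*-KO. *Atp2a2* (ENSMUSG00000029467, chromosome 5) was at 172, 181 and 173 TPM in WT and at 182, 180 and 171 TPM in *Ltf*-KO. The highest *Atp2a1* library was 1.94-fold above the lowest, whereas *Atp2a2* moved by 1.06-fold over all 6 libraries and was lowest in *Ltf*-KO replicate 3, where *Atp2a1* was highest. The log2 difference was 0.10 for *Atp2a1* (95% confidence interval -0.50 to 0.70, limma, unadjusted p = 0.699) and 0.017 for *Atp2a2* (95% confidence interval -0.077 to 0.11, limma, unadjusted p = 0.685). The SD of *Atp2a1* within genotypes exceeded that of 97.8% of tested genes of its level and the SD of *Atp2a2* that of 33.9% of the 1391 tested genes at 100 TPM or more.

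Small membrane peptides set the activity of SERCA. Of the list of 7 pumps and small regulators, 4 passed the filter, 1 was at an unadjusted p under 0.05 with a lower value in *Ltf*-KO, and the median log2 difference was 0.040. The gene was *Mrln*, which encodes myoregulin, an inhibitor of SERCA in skeletal muscle. *Mrln* was at 4.42, 6.06 and 4.75 TPM in WT and at 3.16, 2.15 and 3.32 TPM in *Ltf*-KO. All 3 *Ltf*-KO libraries lay below all 3 WT libraries, a separation in either direction that 8.46% of all tested genes had, and the log2 difference was -0.65 (95% confidence interval -1.05 to -0.26, limma, unadjusted p = 0.00646, adjusted p = 0.999). It thus did not pass the adjusted threshold. *Atp2a3* had a mean of 3.18 TPM, the inhibitors *Sln* and *Pln* were at most at 0.22 and 0.08 TPM, and *Strit1* was listed at 2.19 TPM in WT replicate 3 and at 0 in the other libraries.

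The junction was represented by *Jph1*, a junctophilin that tethers the sarcoplasmic reticulum to the transverse tubule. *Jph1* (ENSMUSG00000042686, chromosome 1) was at 6.63, 7.20 and 6.71 TPM in WT and at 6.71, 6.41 and 7.86 TPM in *Ltf*-KO. *Ltf*-KO replicate 3 and WT replicate 2 were again the highest libraries, over a range of 1.23-fold. The means were 6.85 ± 0.309 TPM (SD, n = 3) for WT and 6.99 ± 0.765 TPM (SD, n = 3) for *Ltf*-KO, and the log2 difference was 0.023 (95% confidence interval -0.19 to 0.24, limma, unadjusted p = 0.807). In the list of 9 junction and t-tubule genes, all of which passed the filter, *Bin1*, which shapes the tubule membrane, had a mean of 318 TPM, *Jph2* a mean of 125 TPM and *Tmem38a*, a cation channel of the store, a mean of 29.7 TPM. The list held 0 genes at an unadjusted p under 0.05, and its median log2 difference was 0.051.

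No gene of the table passed the adjusted threshold between the genotypes. Of 12956 tested genes, 0 (0%) had an adjusted p under 0.05 by limma and 490 (3.78%) had an unadjusted p under 0.05, 260 with a higher and 230 with a lower value in *Ltf*-KO. With quantile normalization the split was 203 higher and 305 lower, and with median-of-ratios scaling 213 higher and 289 lower. Of the 9 tested genes of excitation-contraction coupling, 0 were at an unadjusted p under 0.05 and the smallest unadjusted p was that of *Cacna1s*. The libraries of the genotypes did not overlap in 0 of the 9, beside 8.46% of all tested genes. All 9 estimates lay above 0, with a median of 0.13 beside 0.011 for all tested genes, of which 55.7% lay above 0. With quantile normalization the estimate of *Jph1* was -0.0051. Several of the estimates rested on *Ltf*-KO replicate 3. Without it the log2 difference was -0.059 for *Ryr1*, -0.13 for *Atp2a1*, -0.0077 for *Casq2*, -0.053 for *Jph1* and -0.037 for *Jsrp1*, while it fell to 0.15 for *Cacna1s*, 0.049 for *Cacng1* and 0.016 for *Casq1*. Without WT replicate 3 that of *Atp2a1* was -0.075, and without *Ltf*-KO replicate 1 that of *Atp2a2* was -0.00055.

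**Figure D2:**
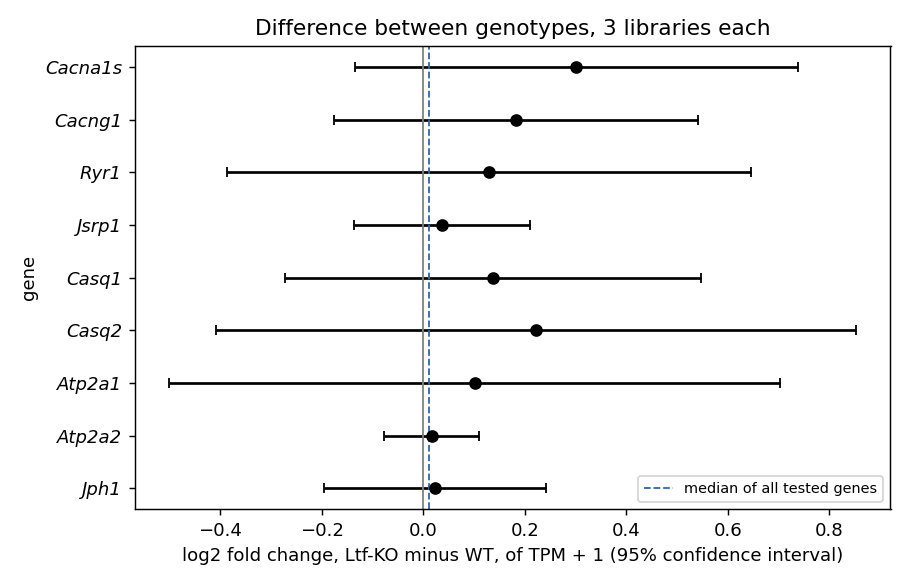
Log2 fold change of TPM + 1 (*Ltf*-KO minus WT, 3 libraries each) of the 9 tested genes, with bars for the 95% confidence interval and a dashed line at the median of all tested genes, 0.011. Every interval includes 0, and the narrowest is that of *Atp2a2*, from -0.077 to 0.11.

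The variation between libraries of a genotype had a common shape, which was examined after the values were seen. *Ltf*-KO replicate 3 was the highest library for 8 of the 9 tested genes, beside 17.0% of all tested genes, and *Atp2a2* was the exception. WT replicate 2 and *Ltf*-KO replicate 3 were the 2 highest libraries for 7 of the 9, namely *Ryr1*, *Cacna1s*, *Cacng1*, *Atp2a1*, *Casq1*, *Casq2* and *Jph1*, beside 8.88% of all tested genes. The number was 7 also with median-of-ratios scaling and with quantile normalization, which were both chosen for this count after seeing the data. WT replicate 3 was the lowest library for 5 of the 9, beside 16.5% of all tested genes. The mean profile of the 9 genes, centred on each gene's mean, was -0.12, 0.15 and -0.22 on the log2 scale in WT and 0.0023, -0.14 and 0.33 in *Ltf*-KO. *Cacng1* and *Casq1* lay closest to it, with a root mean square difference of 0.035 and 0.036, and *Atp2a2* lay farthest with 0.19.

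**Figure D3:**
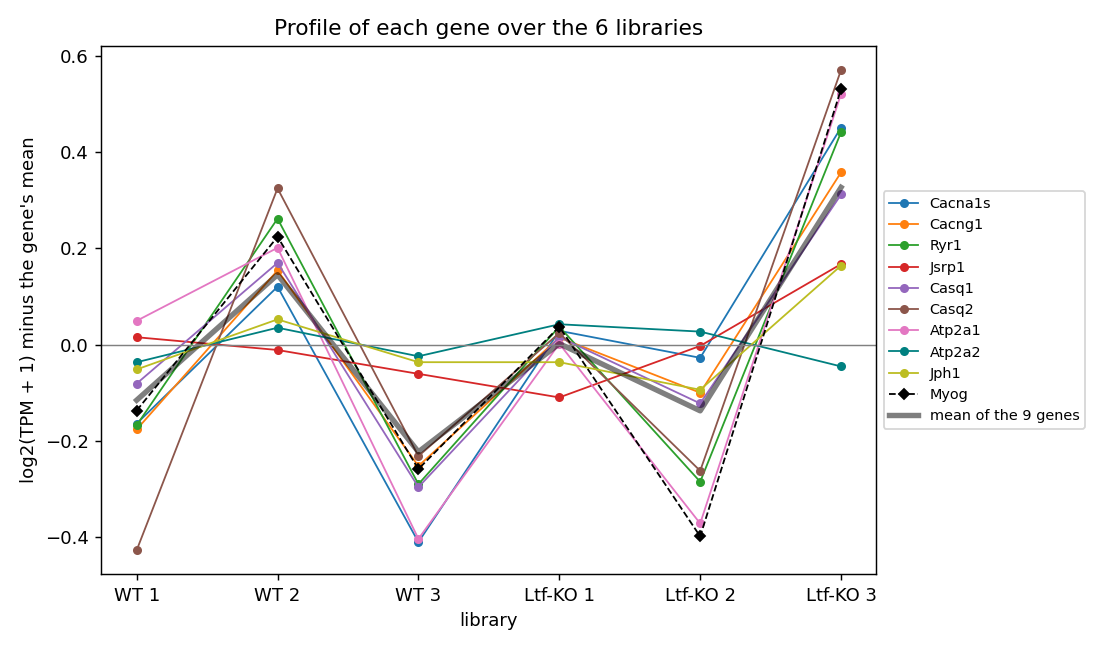
Log2(TPM + 1) minus each gene's mean over the 6 libraries, for the 9 tested genes, their mean (thick line) and *Myog* (dashed), with lines that only join the points of a gene. Most lines peak in WT replicate 2 and *Ltf*-KO replicate 3, where the mean is 0.15 and 0.33, while *Atp2a2* stays near 0.

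Genes of muscle differentiation varied alongside. *Myog*, the transcription factor that drives terminal differentiation, was at 319, 410 and 293 TPM in WT and at 360, 266 and 508 TPM in *Ltf*-KO, and was thus highest in *Ltf*-KO replicate 3 and WT replicate 2. Of 20 differentiation genes, all tested, 19 were highest in *Ltf*-KO replicate 3 and 17 had WT replicate 2 and *Ltf*-KO replicate 3 as their 2 highest libraries. *Acta1*, skeletal alpha-actin, was the most abundant with a mean of 977 TPM. Their summed level was 3780, 4721 and 3557 TPM in WT and 4111, 3713 and 5490 TPM in *Ltf*-KO, and 0 of them were at an unadjusted p under 0.05. The mature fibre list of 9 genes, of which 6 were tested, summed to 1054, 1382 and 997 TPM in WT and to 1165, 971 and 1583 TPM in *Ltf*-KO, mostly from *Mylpf*, a fast myosin light chain with a mean of 1041 TPM. Its 1 gene at an unadjusted p under 0.05 was *Mb*, myoglobin, at 54.9, 68.7 and 55.9 TPM in WT and at 67.0, 73.2 and 80.7 TPM in *Ltf*-KO (log2 difference 0.30, limma, unadjusted p = 0.0274, adjusted p = 0.999). Of the adult fast myosins in this list, *Myh1* was at 19.6 to 40.0 TPM, with a mean of 30.5 TPM, while *Myh2* and *Myh4* were at most at 0.10 and 0.26 TPM. The slow myosin *Myh7* had a mean of 4.05 TPM, and *Pvalb*, the calcium buffer of fast fibres, was at most at 0.75 TPM. The summed level of the 8 SC and myoblast markers stayed between 1423 and 1476 TPM, mostly from *Myod1* and *Itga7* (mean 384 TPM). Single markers moved in both directions. Of the 7 tested, 3 (*Itga7*, *Cdh15* and *Vcam1*) had WT replicate 2 and *Ltf*-KO replicate 3 as their 2 highest libraries, beside 8.88% of all tested genes. *Pax7*, *Myf5* and *Msc* were lowest in *Ltf*-KO replicate 3, and *Myod1* was lowest in WT replicate 2. In bulk RNA, fewer cells of a type and less RNA per cell cannot be told apart, and the part of differentiation in the variation of the calcium genes was not tested.

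The profile of the coupling genes over the 6 libraries was compared with that of each tested gene other than the 9. By root mean square difference from the mean profile, *Mybph* (0.021), *Hspb8* (0.028), *Actn3* (0.039) and *Dbh* (0.046) were among the 5 closest. *Mybph*, a myosin-binding protein, was at 58.5, 71.1 and 53.3 TPM in WT and at 64.6, 57.7 and 82.4 TPM in *Ltf*-KO, with the same 3 highest libraries in the same order as *Cacng1* and the same lowest. *Actn3* encodes the alpha-actinin of fast fibres. *Casq2* had the largest SD over libraries among the 9, and the genes closest to it were *Filip1* (0.085), *Srpk3* (0.089), *Commd5* (0.10), *Syp* (0.10) and *Syt8* (0.11). *Srpk3*, a muscle protein kinase, was at 3.86, 6.37 and 4.10 TPM in WT and at 5.99, 3.86 and 7.80 TPM in *Ltf*-KO.

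Isoform pairs were compared as the share of each isoform in the summed TPM of its pair. *Atp2a1* made up 14.9%, 15.7% and 11.1% of *Atp2a1* and *Atp2a2* in WT and 13.8%, 11.0% and 19.8% in *Ltf*-KO. *Casq1* made up 9.10%, 6.85% and 6.61% of the calsequestrin pair in WT and 7.35%, 7.88% and 6.54% in *Ltf*-KO. *Atp2a2*, which most other cells also express, and *Casq2* were thus the more abundant of their pairs in all 6 libraries. The ratio was 4.05-fold to 8.08-fold for *Atp2a2* and 9.99-fold to 14.3-fold for *Casq2*. *Ryr1* made up between 98.0% and 99.7% of *Ryr1* and *Ryr3*. *Jph1* made up between 4.98% and 5.56% of *Jph1* and *Jph2*, the isoform known from heart and skeletal muscle. The genotype means differed by 0.97 percentage points for *Atp2a1*, 0.078 for *Ryr1*, -0.26 for *Casq1* and 0.082 for *Jph1* (*Ltf*-KO minus WT). The two-sided exact permutation p was 0.9, 0.7, 0.8 and 0.8, and the adjusted p was 0.9 for each of the 4 shares. With 3 libraries against 3 the smallest p is 0.1, so that this design cannot reach 0.05. Each of the 4 differences turned its sign without a library, that of *Atp2a1* to -1.49 without *Ltf*-KO replicate 3.

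**Figure D4:**
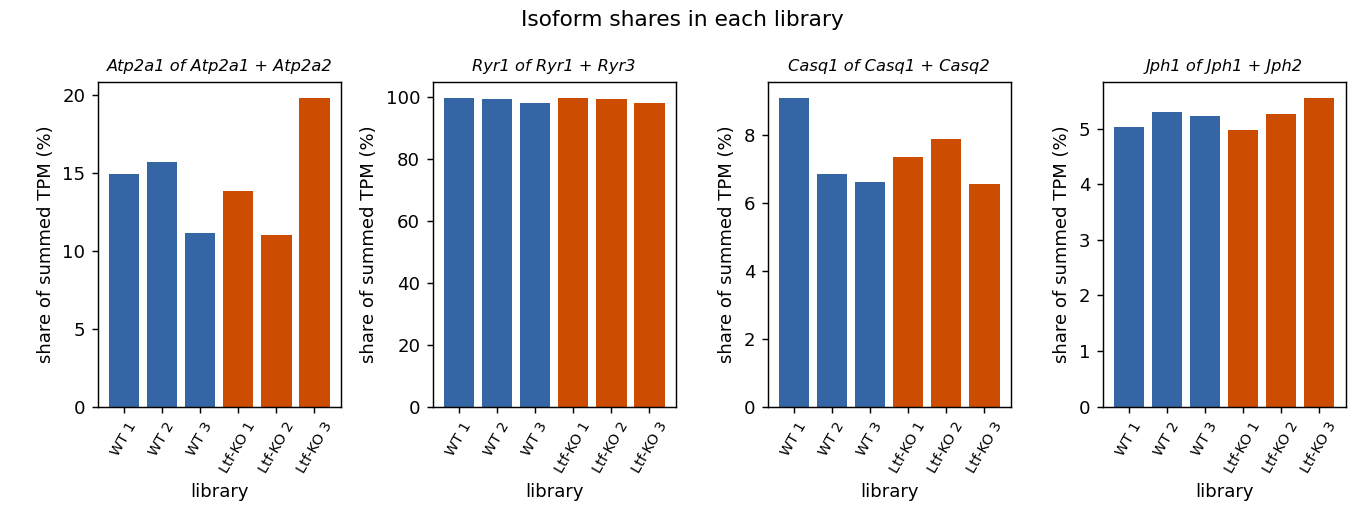
Share of *Atp2a1*, *Ryr1*, *Casq1* and *Jph1* in the summed TPM of their isoform pair (%, axes from 0 and scaled by panel), 1 bar per library, WT in blue and *Ltf*-KO in orange. *Ryr1* makes up at least 98.0% of its pair in every library, and the share of *Atp2a1* ranges from 11.0% to 19.8%.

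The other routes of calcium were described by 11 lists of 89 different genes, which include the 10 genes above, and 71 of the 89 passed the filter. Of the 71, 53 had a higher and 18 a lower estimate in *Ltf*-KO, 2 were at an unadjusted p under 0.05 with a higher and 1 with a lower value, 0 had an adjusted p under 0.05 by limma, and the median log2 difference was 0.041. The libraries of the genotypes did not overlap for 6 of the 71. Both counts are shares near the 3.78% and 8.46% of all tested genes. The 53 are 74.6% of the 71, beside 55.7% of all tested genes with an estimate above 0. With quantile normalization 48 of the 71 were above 0 (67.6%), beside 49.1% of all tested genes, and with median-of-ratios scaling 49 (69.0%), beside 49.8%. Without *Ltf*-KO replicate 3, 7 calcium genes were at an unadjusted p under 0.05 in place of 3. Over all 12956 tested genes the same fit had 611 at that level in place of 490.

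**Figure D5:**
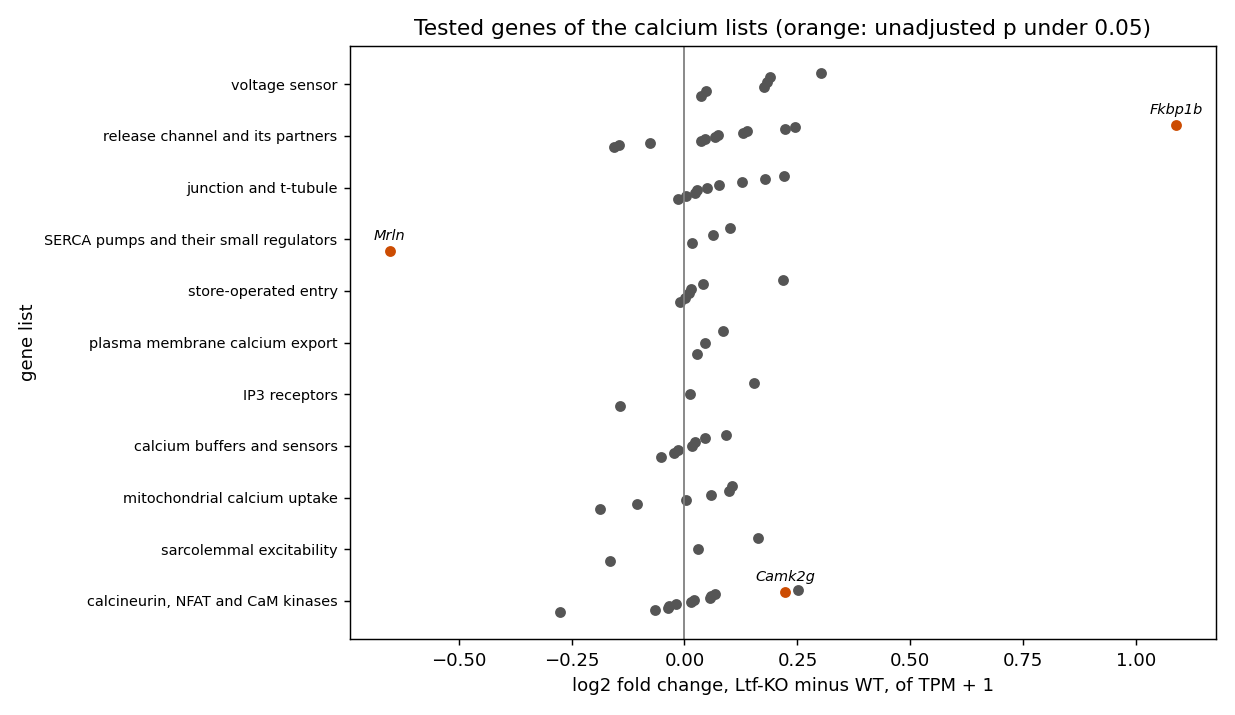
Log2 fold change of TPM + 1 (*Ltf*-KO minus WT) of the tested genes of each calcium list, 1 point per gene, in orange where the unadjusted p is under 0.05. *Fkbp1b* (1.09) and *Mrln* (-0.65) lie apart from the rest, and *Camk2g* (0.22) is the third gene at that level.

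Store-operated entry refills the store from outside the cell, with STIM proteins as sensors and ORAI proteins as channels. Of its 8 genes 6 were tested and 0 were at an unadjusted p under 0.05. *Orai2* (mean 58.6 TPM), *Stim2* (23.7 TPM) and *Orai1* (16.5 TPM) were the most abundant, and the median log2 difference was 0.013, or -0.00071 with quantile normalization. Calcium leaves the cell through plasma membrane pumps and the sodium-calcium exchanger. *Atp2b1* (95.3 TPM), *Slc8a1* (5.62 TPM) and *Atp2b4* (3.50 TPM) led this list, in which 3 of 7 genes were tested and 0 were at an unadjusted p under 0.05, with a median log2 difference of 0.045. The 3 IP3 receptors, release channels of most cell types, were all tested with 0 at an unadjusted p under 0.05. *Itpr3* had a mean of 18.8 TPM, *Itpr1* of 11.4 TPM and *Itpr2* of 5.63 TPM, and the median log2 difference was 0.013, or -0.0076 with quantile normalization. *Itpr1* and *Itpr3* were highest in *Ltf*-KO replicate 2, at 15.5 and 21.5 TPM, the highest library of 21.3% of all tested genes. *Itpr2* was highest in WT replicate 2, at 7.53 TPM.

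General calcium binders were the most abundant of the calcium genes. Of the 8 buffers and sensors 7 were tested, and *S100a6* (2295 TPM), *Calm2*, a calmodulin gene (728 TPM), and *Calr*, the calcium binder of the endoplasmic reticulum (586 TPM), led. The list held 0 genes at an unadjusted p under 0.05, and its median log2 difference was 0.016. The mitochondrial uniporter list had 6 genes, all tested, with 0 at an unadjusted p under 0.05 and a median of 0.031. *Smdt1*, a subunit of the uniporter, had a mean of 169 TPM and *Micu2*, a regulator of it, a mean of 34.0 TPM. Sarcolemmal excitability was weakly represented, with 3 of 8 genes tested and 0 at an unadjusted p under 0.05. *Scn4a*, the sodium channel of adult muscle, had a mean of 0.743 TPM and *Clcn1*, the chloride channel, a mean of 0.107 TPM.

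Calcineurin, NFAT and the CaM kinases read out calcium signals. Of 13 genes 12 were tested, 1 was at an unadjusted p under 0.05 with a higher and 0 with a lower value in *Ltf*-KO, and the median log2 difference was 0.018. *Ppp3r1* (56.7 TPM) and *Ppp3cb* (54.7 TPM), calcineurin subunits, and *Camk2g* (49.5 TPM) were the most abundant. *Camk2g*, a subunit of CaM kinase II, was at 47.5, 44.6 and 44.7 TPM in WT and at 51.5, 57.1 and 51.7 TPM in *Ltf*-KO, so that all 3 *Ltf*-KO libraries lay above all 3 WT libraries. The log2 difference was 0.22 (95% confidence interval 0.088 to 0.36, limma, unadjusted p = 0.00636, adjusted p = 0.999), which did not pass the adjusted threshold.

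Markers of other cell types were low for the most part. The 8 cardiomyocyte markers summed to between 1.48 and 3.23 TPM, 0 passed the filter and *Myl2* led with a mean of 0.647 TPM, so that heart muscle markers were near 0 beside *Casq2* and *Atp2a2*. The 6 endothelial markers, led by *Cdh5* (mean 3.26 TPM), summed to 9.96, 7.54 and 17.9 TPM in WT and to 13.5, 15.5 and 7.45 TPM in *Ltf*-KO. The 7 Schwann and neural markers, with *Rbfox3* at 0 in all 6 libraries, summed to 11.9, 15.6 and 21.8 TPM and to 16.7, 19.5 and 13.2 TPM. Both lists were highest in WT replicate 3. Their part in the variation of the coupling genes was not tested. The 8 fibroblast markers summed to 103, 108 and 103 TPM in WT and to 134, 114 and 102 TPM in *Ltf*-KO, mostly from *Col3a1* (96.7 TPM), which was highest in *Ltf*-KO replicate 1. Of the 5 tested members, 3, namely *Col1a1* (3.73, 4.98 and 5.91 TPM in WT, 6.91, 9.32 and 5.05 TPM in *Ltf*-KO), *Dcn* (2.04, 2.89 and 5.24 TPM, 5.71, 6.83 and 2.82 TPM) and *Pdgfra* (1.00, 1.13 and 1.35 TPM, 1.42, 1.90 and 1.11 TPM), were highest in *Ltf*-KO replicate 2 and next in *Ltf*-KO replicate 1, the 2 highest libraries of 8.84% of all tested genes and also those of *Fkbp1b* and *Pdgfrb*. The part of such cells in these differences was not tested. *Ly6a*, which encodes the Sca1 of the sort, had a mean of 2.05 TPM and another order, at 1.33, 2.32 and 2.01 TPM in WT and at 1.66, 1.76 and 3.21 TPM in *Ltf*-KO, with *Ltf*-KO replicate 3 and WT replicate 2 highest as in 7 of the 9 coupling genes. The 7 macrophage markers, led by *Cd68* (3.53 TPM), summed to 11.6, 6.01 and 4.46 TPM and to 4.74, 4.69 and 3.66 TPM, with *Itgam*, which encodes CD11b, at most at 0.07 TPM. The 8 smooth muscle and pericyte markers, led by *Smtn* (37.7 TPM), summed to between 81.9 and 95.5 TPM. They held 1 gene at an unadjusted p under 0.05, *Pdgfrb*, at 3.73, 3.89 and 4.71 TPM in WT and at 6.95, 7.51 and 4.80 TPM in *Ltf*-KO (log2 difference 0.52, limma, unadjusted p = 0.0171, adjusted p = 0.999). The fibroblast, endothelial, Schwann and macrophage lists held 0 such genes.

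The 8 proliferation genes, led by *Cdk1* (354 TPM), summed to 1340, 1282 and 1227 TPM in WT and to 1250, 1218 and 1302 TPM in *Ltf*-KO, with 0 at an unadjusted p under 0.05 and a median log2 difference of -0.026. WT replicate 3 and *Ltf*-KO replicate 2, where *Myog*, *Ryr1* and *Atp2a1* were lowest or next to lowest, had the lowest sums of these 8 genes. *Xist*, the transcript of the inactive X chromosome, was between 163 and 185 TPM in all 6 libraries, and the 4 Y-linked genes summed to at most 0.27 TPM, so that the libraries did not differ in these markers of sex.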

How the data were processed

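RNA sequencing of flow-sorted SCs gave 3 WT and 3 *Ltf*-KO libraries after 4 days of growth. The authors deposited TPM values of 55416 genes. By the study's methods, extraction and normalization followed the protocol of the manufacturer. The unit was read from the values, which sum to between 993650 and 994356 per library. The submitters' processing notes name the build GRCm39. The aligner, counting tool and annotation release are not given in the sources used here. TPM keeps no depth, so precision was judged from the spread between libraries.

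Libraries were grouped by their labels. *Ltf*-KO was compared with WT on log2(TPM + 1) with limma 3.58.1 in R 4.3.3 (lmFit, then eBayes with a variance trend, no covariate). Genes under a mean of 1 TPM were left out, which kept 12956. All tests were two-sided, with Benjamini-Hochberg adjustment over every gene tested. On this scale the fold change of genes with low TPM is understated. The fit was tested on simulated data. Isoform shares were tested by exact permutation of the libraries (scipy 1.17.1), adjusted over the 4 shares. Chromosomes are from GENCODE and promoters from RefSeq on GRCm38.p6.

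The genes named were the 10 genes, *Ltf*, and of each calcium list the 3 most abundant and those at an unadjusted p under 0.05. Leaving out the 9 tested genes, the 5 genes closest in profile to their mean and to the gene with the largest SD were added. The most abundant gene of each marker list was named too. Other genes were named after their values were seen, and some genes that this rule takes are not reported here. The members and lists were chosen with earlier results of these data known. Alternatives were a pseudocount of 0.1, no filter, a mean of at least 10 TPM, quantile normalization, median-of-ratios scaling, no variance trend, the replicate number as a block and each library left out in turn.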

Additional observations from a re-analysis of the deposited data

How the results depend on the processing

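For the 9 tested genes, 0 had an adjusted p under 0.05 by limma under any alternative, and the smallest unadjusted p over these alternatives was 0.0582. The adjusted p of all genes stayed above 0.05 in every alternative with 6 libraries, while leaving out a library gave 0 to 6 calls. The number at an unadjusted p under 0.05 was 490, against 890 without a filter (26553 genes), 281 at a mean of at least 10 TPM (8072 genes) and 456 to 611 without a library. Calcium genes at that level numbered 3, against 1 at a mean of at least 10 TPM, where fewer genes are tested, and 2 to 7 without a library.

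With quantile normalization the log2 difference of *Jph1* was -0.0051. Without a library the log2 difference ranged from -0.059 to 0.30 for *Ryr1*, -0.13 to 0.31 for *Atp2a1*, -0.00055 to 0.043 for *Atp2a2*, -0.0077 to 0.44 for *Casq2*, -0.053 to 0.076 for *Jph1* and -0.037 to 0.10 for *Jsrp1*. *Cacna1s*, *Cacng1* and *Casq1* stayed above 0, at 0.15 to 0.44, 0.049 to 0.30 and 0.016 to 0.26, each lowest without *Ltf*-KO replicate 3. At a mean of at least 10 TPM, *Cacna1s*, *Casq1* and *Jph1* are not tested and have no value. The share differences ranged from -1.49 to 2.90 percentage points for *Atp2a1*, -0.40 to 0.58 for *Ryr1*, -0.72 to 0.52 for *Casq1* and -0.063 to 0.23 for *Jph1*. The cause was not tested.

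With the replicate block, 380 genes were at an unadjusted p under 0.05 and 0 passed the adjustment, and the exact sign-flip p was 1 for *Atp2a1*, 0.25 for *Ryr1*, 0.75 for *Casq1* and 1 for *Jph1*. With 3 pairs the smallest such p is 0.25, so that this test cannot reach 0.05. The limma p of *Fkbp1b* with the block was 0.0522. Deviations from the genotype mean had correlations across genes of -0.041, -0.058 and -0.088 for libraries with the same number. For WT and *Ltf*-KO libraries with unlike numbers they were -0.026 to 0.087. Whether libraries with the same number shared a batch is not given in the labels and was not tested. A test on counts was not run, as the table holds TPM. The depth, and so the counting error of low genes such as *Ryr3*, is unknown.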
